A study of Rattus norvegicus with 24 samples.

Results

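The transcripts of 10 genes of the hypoxia-inducible factor pathway, Hif1a, Epas1, Egln1, Egln3, Vegfa, Bnip3, Adm, Pfkfb3, Ldha and Pgk1, were followed in the frontal cortex of adult male Sprague-Dawley rats that had inhaled an aerosol of tungsten particles. The genes were taken by symbol, and each symbol matched 1 of the 32883 reference genes that all tables list. RNA was collected 24 h after exposure from 24 rats in 3 groups of 8, Control at 0 mg/m3, Low at 5 mg/m3 and High at 80 mg/m3 of aerosol. All samples carry the same treatment label, so Control differs from the others by its concentration, and the sources used here do not give the length of the exposure. The study's methods describe 24 subjects and brain biopsies, while the extraction text of the labels speaks of cell lines, and the markers of cortical projection neurons were present in every library. The study set out to assess effects of this pollutant on the brain, and each group is compared here with both others.

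Hypoxia-inducible factors are transcription factors made of an oxygen-regulated alpha subunit and a constant partner. Hif1a or Epas1 encodes the alpha subunit, and Arnt or Arnt2 encodes the partner. When oxygen is present, prolyl hydroxylases such as those encoded by Egln1 and Egln3 mark the alpha subunit for degradation, so that the factor is controlled mainly as a protein and less through its mRNA. When oxygen falls, the stabilised factor raises genes for glycolysis, for blood vessel growth and for removal of mitochondria, and Egln3 is itself among its targets. In the brain, which depends on a steady supply of oxygen and glucose, Vegfa acts on vessels, Adm encodes a vessel-dilating peptide, and Pfkfb3, Ldha and Pgk1 serve the glycolytic pathway.

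The factors bind DNA at a short core, searched here as ACGTG and as GCGTG on both strands. The search ran over the 250 bases before the start of each gene in RefSeq promoter windows of build GRCr8, in which 9 of the 10 members had an entry and Vegfa had 2. A palindromic CACGTG holds the core ACGTG on both strands and counts as 2 matches. At least 1 match stood in the windows of 5 members. Hif1a had 3 matches, Egln1 had 1, Bnip3 had 4, Pfkfb3 had 2 and Ldha had 4, and the windows of Epas1, Egln3, Vegfa and Adm had 0. Of all 33469 windows of this length, 36.7% held a match to either core, 16.6% to ACGTG and 25.9% to GCGTG. The windows of Ldha (chr1:106507842-106508091, plus strand), Bnip3 (chr1:203154963-203155212, minus strand) and Egln3 (chr6:77411016-77411265, minus strand) are printed in the direction of the gene, because Egln3 was the member past the threshold in a comparison and Ldha and Bnip3 were the members that followed Pgk1 most closely across rats. Capitals mark the matches to a core.
Ldha: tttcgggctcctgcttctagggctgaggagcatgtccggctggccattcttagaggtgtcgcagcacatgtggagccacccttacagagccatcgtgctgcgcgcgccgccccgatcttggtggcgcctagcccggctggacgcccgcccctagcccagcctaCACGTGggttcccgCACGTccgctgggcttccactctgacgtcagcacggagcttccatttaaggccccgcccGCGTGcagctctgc
Bnip3: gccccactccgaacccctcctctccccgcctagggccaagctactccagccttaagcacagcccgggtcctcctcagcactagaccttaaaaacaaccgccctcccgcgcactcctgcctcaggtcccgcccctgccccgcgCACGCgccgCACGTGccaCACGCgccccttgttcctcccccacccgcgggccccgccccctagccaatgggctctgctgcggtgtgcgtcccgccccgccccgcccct
Egln3: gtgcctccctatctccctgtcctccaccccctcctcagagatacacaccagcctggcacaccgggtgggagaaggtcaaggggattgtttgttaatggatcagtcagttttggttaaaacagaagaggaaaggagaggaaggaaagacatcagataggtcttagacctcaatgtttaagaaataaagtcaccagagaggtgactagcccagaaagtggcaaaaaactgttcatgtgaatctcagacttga
The last base printed is the base before the gene's start. In Ldha the matches began 87, 86, 73 and 14 bases before the start, and in Bnip3 they lay close together, at 108, 99, 98 and 90 bases. A match is a run of letters and not a measured binding site, and a window without one says nothing about the factor.

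Each table gives the coverage of a gene, its mean read depth per base, which was scaled to a sum of 1000000 over the reference genes of the library. Coverage is already per length, so that levels can be set side by side between genes. In units of 1000000, the summed coverage of reference genes lay between 1.67 and 2.82 for Control rats, between 1.64 and 3.07 for Low rats and between 1.77 and 2.67 for High rats. The Low tables held 0 assembled loci. Those of the other groups held 46334 to 66427, except that of Control replicate 56 with 159573. Exposure at the low concentration and the way the table was made therefore cannot be told apart. The mitochondrial share of the summed coverage was 22.1% to 30.0% for Control, 21.8% to 33.8% for Low and 22.5% to 27.8% for High rats. Some rats stood apart in their cell markers. Control replicate 49 had the lowest summed endothelial, pericyte and astrocyte markers and a choroid plexus sum of 72.5 against a Control median of 8.98, and it was the lowest Control rat in 6 of the 10 members. High replicate 67 had a cortical projection neuron sum of 421 against a High median of 1165, and it was the lowest High rat in 4 members, which were Bnip3, Pfkfb3, Ldha and Pgk1. High replicate 72 was the lowest High rat in 4 others, Hif1a, Epas1, Egln1 and Vegfa, and had the lowest pericyte (51.6) and astrocyte (894) sums in High. High replicate 65 had a striatal marker sum of 1567 against a High median of 465. Low replicate 57 was the lowest Low rat in 4 members and the highest in 3. Its pericyte (34.6) and astrocyte (925) sums were the lowest in Low, against Low medians of 66.9 and 1486. The part of these tissue differences in the results was not tested.

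The members ran from highly to weakly expressed genes of the frontal cortex. In Control the scaled coverage was 425 ± 36.9 (SD, n = 8) for Pgk1 and 331 ± 45.6 for Ldha, which encode the glycolytic enzymes phosphoglycerate kinase and the A subunit of lactate dehydrogenase. Bnip3, which encodes a mitochondrial protein that promotes removal of mitochondria, followed at 188 ± 18.9. Pgk1 stood at percentile 98.6 of the 15644 genes tested and Adm at percentile 8.4. Epas1 lay at 92.6 ± 15.4, Vegfa at 61.6 ± 6.61, Egln1 at 52.6 ± 8.06 and Hif1a at 41.8 ± 5.50. The lower levels were those of Pfkfb3, an enzyme that makes the activator of phosphofructokinase, at 25.3 ± 3.72, of Egln3 at 15.5 ± 1.98 and of Adm at 1.93 ± 0.821. The Control ranges did not overlap between Ldha and Bnip3, Bnip3 and Epas1, Hif1a and Pfkfb3, and Egln3 and Adm, while the other neighbours in this order overlapped. Vegfa lay above Egln1 in 21 of 24 rats and Egln1 above Hif1a in 22, and every other neighbouring pair kept its order in all 24. The median coefficient of variation between Control rats was 13.5% over the members and 16.9% over all genes tested.

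**Figure D1:**
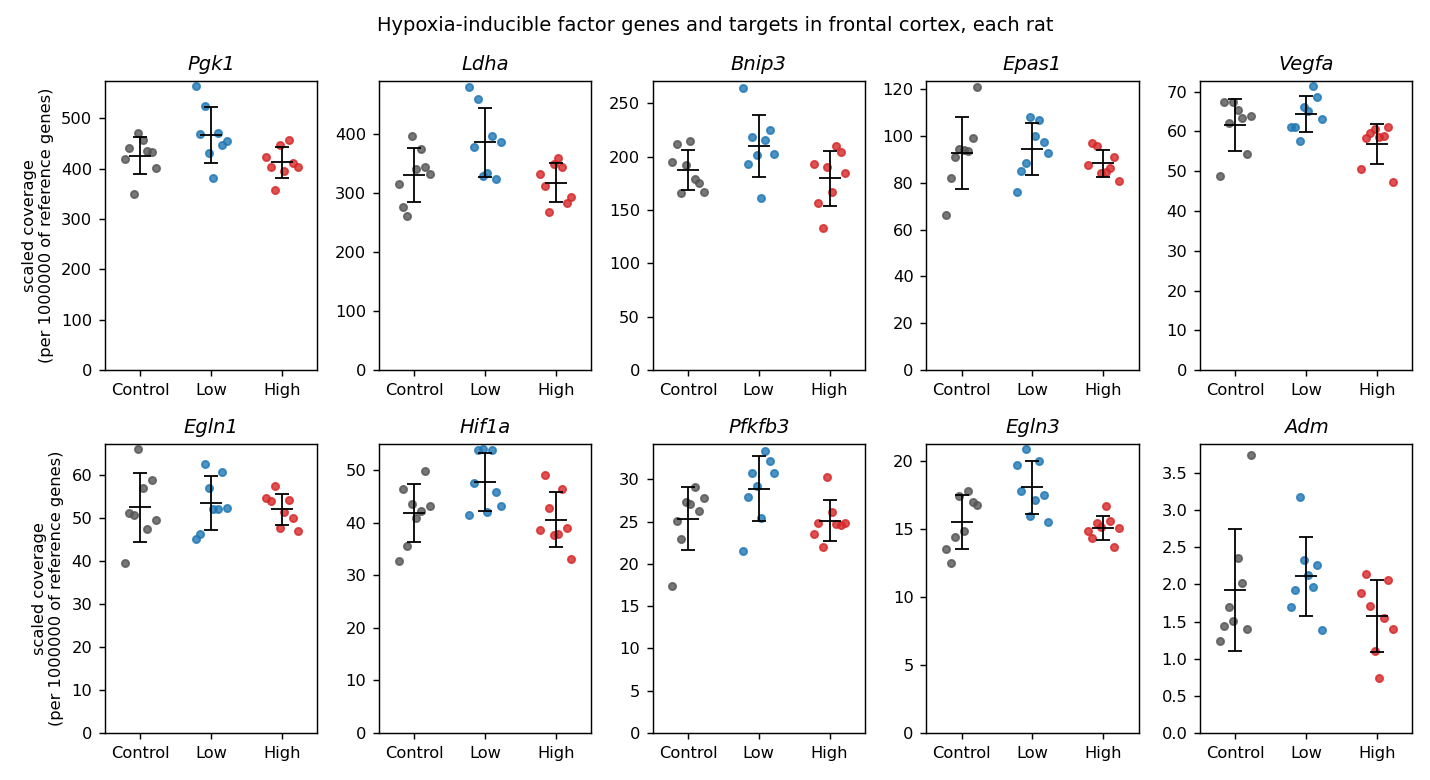
Scaled coverage (per 1000000 over reference genes, linear axis from 0) of the 10 members in each of 24 rats, in the order of their mean level. Points are rats, bars are group means with their SD (n = 8 per group), and the Control, Low and High points overlap in every panel, with Adm of Control replicate 56 at 3.74 above the other Control rats. Of the 15644 genes tested, 239 did not overlap in Low against Control, 1 in High against Control and 354 in Low against High.

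In Low against Control, 0 of the 10 members passed the adjusted threshold of 0.05, where 6.11% of the 15644 genes tested did. At an unadjusted limma p under 0.05 there were 3 members, Egln3, Ldha and Hif1a, where 18.4% of all genes lay under it. By exact Wilcoxon rank-sum tests there were 2, Egln3 (unadjusted p = 0.0281) and Pfkfb3 (0.0499), beside 2726 of the 15644 genes. Ldha and Hif1a both had 0.130 by that test. All 10 estimates were above 0, as were 66.5% of all genes, with a median log2 difference of 0.14 against 0.06 over all genes. Without scaling and under median-of-ratios scaling 8 of 10 were above 0 and those of Epas1 and Egln1 were below. Against the median of all genes, 8 members lay above it with the main scaling and without scaling, and 7 with median-of-ratios. At a minimum mean of 5 that median was 0.08, and 6 of the 9 members tested lay above it.

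Egln3 (ENSRNOG00000005053, chromosome 6, 75050329 to 75075795, minus strand) encodes a prolyl hydroxylase and is among the genes that the factor itself induces. Its scaled coverage was 12.5 in the lowest, 15.8 in the median and 17.8 in the highest Control rat. In Low the lowest was 15.5, the median 17.6 and the highest 20.8, and in High they were 13.7, 15.1 and 16.7. The Low rats sat at the upper end of the Control range, with 7 of 8 above the Control median and 4 above the highest Control rat. The log2 difference of Low against Control was 0.21 (SE 0.0741, 95% interval 0.05 to 0.36), with an adjusted p of 0.110 in limma.

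Ldha (ENSRNOG00000013009, chromosome 1, 102900286 to 102909707, plus strand) ranged from 262 over a median of 337 to 398 in Control. In Low it ranged from 324 over 383 to 480, and in High from 269 over 323 to 361. Only 2 Low rats, replicates 57 and 59, exceeded the highest Control rat. The difference was 0.22 (SE 0.0936, interval 0.03 to 0.41, adjusted p = 0.196). Hif1a (ENSRNOG00000008292, chromosome 6, 96810907 to 96856052, plus strand), the alpha subunit for which the pathway is named, went from 32.8 over 42.7 to 49.9 in Control, from 41.5 over 46.7 to 53.9 in Low and from 33.0 over 38.8 to 49.0 in High. No Low rat fell under the lowest Control rat, and 3 lay above the highest. The difference of 0.19 had an interval of 0.01 to 0.37 and an adjusted p of 0.250.

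The remaining members had wider or smaller differences between Low and Control. Pfkfb3 gave 0.19 (interval -0.01 to 0.38), with 5 Low rats above the highest Control rat. Bnip3 gave 0.16 (interval -0.04 to 0.35) and Pgk1 gave 0.13 (interval -0.01 to 0.28). Replicate 57 was the highest Low rat for Ldha, Bnip3 and Pgk1 and the lowest for Hif1a, Epas1, Egln1 and Pfkfb3. Vegfa, the endothelial growth factor, gave 0.06 (interval -0.08 to 0.21), Egln1, the main prolyl hydroxylase, gave 0.03 (interval -0.14 to 0.21), and Epas1, the second alpha subunit, gave 0.03 (interval -0.15 to 0.22). For Adm the difference was 0.11 with an interval of -0.20 to 0.42, and the adjusted p-values of these 7 members ran from 0.291 to 0.868.

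In High against Control, 0 of the 10 members passed, and 0.0% of the 15644 genes did in limma, with 2.11% under an unadjusted p of 0.05 and none of them a member. By exact Wilcoxon rank-sum tests 0 genes passed after adjustment. An unadjusted p under 0.05 was found for 887 of the 15644 genes, with Vegfa the 1 member among them at 0.0499. All 10 estimates were below 0, where 36.0% of all genes were above 0, with a median of -0.05 against -0.03 over all genes. This direction depended on the scaling, since without scaling 9 of 10 and with median-of-ratios 3 of 10 were above 0. Without scaling the median of all genes moved to 0.14, and 3 members lay above that median with each of these scalings.

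Vegfa (ENSRNOG00000019598, chromosome 9, 17340341 to 17355681, plus strand) ran from 48.9 over 63.7 to 67.5 in Control, from 57.6 over 64.1 to 71.4 in Low and from 47.3 over 58.7 to 61.0 in High. All 8 High rats lay under the Control median. The log2 difference of High against Control was -0.11 (SE 0.0686, interval -0.25 to 0.03, adjusted p = 0.999), and it turned to 0.069 without scaling. Adm (ENSRNOG00000027030, chromosome 1, 175445088 to 175447259, plus strand) had the widest interval of the members, -0.48 to 0.14 around -0.17. Its levels of 1.24 to 3.74 in Control and 0.735 to 2.13 in High were close to the minimum mean of 1 that a gene needed to be tested. For the other 8 members the estimates lay between -0.07 and -0.00, with every adjusted p at 0.999 and intervals within -0.26 to 0.19.

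**Figure D2:**
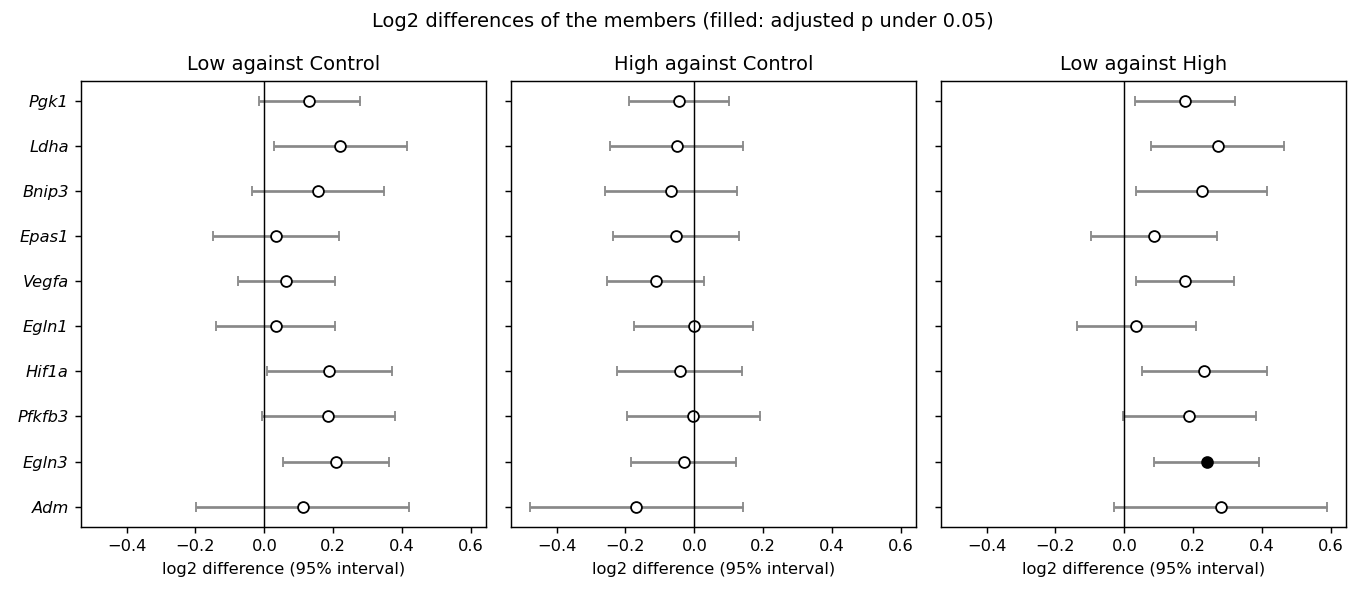
Log2 differences of the 10 members in the 3 comparisons on the log2(scaled coverage + 1) scale, with 95% intervals from limma, 8 rats per group. Filled points passed an adjusted p of 0.05, which Egln3 did in Low against High at 0.24, a call that was not made without scaling or with median-of-ratios scaling. In High against Control all 10 points lie below 0, of which 9, all but Adm, turned above 0 without scaling and 3 with median-of-ratios scaling. Of all genes tested, 36.0% lay above 0 in that comparison.

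Low against High compared both exposed groups, and it shares its rats with the comparisons to Control. Egln3 was higher in Low, the 1 of 10 members past the threshold, where 11.7% of the 15644 genes tested passed. The Low rats averaged a scaled coverage of 18.0 ± 1.95 (SD, n = 8), the High rats 15.1 ± 0.887 (SD, n = 8). The log2 difference was 0.24 (SE 0.0741, interval 0.09 to 0.39), a 1.18-fold level (interval 1.06 to 1.31), with an adjusted p of 0.0372 in limma and 0.0240 by exact Wilcoxon rank-sum tests. All 8 Low rats lay above the High median and 6 above the highest High rat, so that the groups overlapped in 2 rats of Low. The call was not kept without scaling (0.03, adjusted p = 0.966), with median-of-ratios scaling (0.15, adjusted p = 0.201), with FPKM scaled to 1000000 (0.21, adjusted p = 0.0573), with libraries 56 to 62 as a covariate (0.13, adjusted p = 0.575) or without any 1 of 10 rats, Low replicates 57, 58, 59 and 62 and High replicates 65, 66, 67, 68, 71 and 72, for which the adjusted p reached 0.0893. Libraries 56 to 62 are a run of 1 Control and 6 Low rats with 1.15% to 1.76% of coverage on the minus strand of the mitochondrial genome, and the 2 Low rats outside it had 15.5 and 17.5 for Egln3, against 15.9 to 20.8 within it.

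At an unadjusted limma p under 0.05 there were 6 members, Egln3, Ldha, Hif1a, Vegfa, Pgk1 and Bnip3, where 29.1% of all genes lay under it. By exact Wilcoxon rank-sum tests there were 7, these 6 and Pfkfb3, beside 5213 of the 15644 genes. All 10 estimates were above 0, as were 69.9% of all genes, with a median of 0.21 against 0.09 over all genes. Without scaling 5 of 10 and with median-of-ratios 8 of 10 were above 0. Without scaling the median of all genes moved to -0.12, and 8 members lay above that median with each scaling. At a minimum mean of 5 the median was 0.11, and 7 of the 9 members tested lay above it. Ldha differed by 0.27 (interval 0.08 to 0.46, adjusted p = 0.0592), with all 8 Low rats above the High median. Hif1a differed by 0.23 (interval 0.05 to 0.41, adjusted p = 0.0857) and Vegfa by 0.18 (interval 0.03 to 0.32, adjusted p = 0.0918). Pgk1, at 0.18, and Bnip3, at 0.22, had adjusted p-values of 0.104 and 0.112. Pfkfb3 (0.19), Adm (0.28), Epas1 (0.09) and Egln1 (0.03) had intervals that included 0. The values of all members overlapped between Low and High, as did those of all but 354 of the 15644 genes tested.

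The immediate early genes report recent neuronal activity, and 8 of 8 were found. Their summed level was 372 to 943 in Low (median 696), 299 to 625 in Control (median 379) and 132 to 547 in High (median 287). These ranges overlap. The endothelial markers, 7 of 8 of which were found in the tables and Cldn5 of these near 0, summed to 80.3 to 105 in Low, 62.2 to 114 in Control and 66.2 to 90.7 in High. The astrocyte markers, 7 of 7 of which were found, summed to 925 to 1665 in Low (median 1486), 800 to 1785 in Control (median 1422) and 894 to 1438 in High (median 1167). Fewer cells of a type and less RNA per cell cannot be told apart in such bulk tissue, and the part of these lists in the differences was not tested. Control replicate 49 and Low replicate 57 were left out together in a step added after seeing the data. Without them 0 members passed in Low against Control and in High against Control. In Low against High 4 passed, namely Hif1a (0.26, adjusted p = 0.0216), Egln3 (0.22, 0.0283), Vegfa (0.19, 0.0273) and Pfkfb3 (0.25, 0.00817). Among all genes that step moved the calls in High against Control from 0 to 390 and in Low against High from 1828 to 4514.

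For 2 members the ratio of coverage to FPKM differed by kind of table. The library median of that ratio was 3.34 to 6.42 in Low, 5.05 to 7.86 in Control and 4.95 to 7.65 in High. Relative to the median of the library, the ratio was near 1 for the other members. For Epas1 (ENSRNOG00000021318, chromosome 6, 10306405 to 10387265, plus strand) it was 0.639 to 0.843 in Control, 0.686 to 0.858 in High and 0.859 to 0.864 in Low. For Pfkfb3 (ENSRNOG00000018911, chromosome 17, 70684134 to 70713726, plus strand) it was 0.920 to 0.976 in Control, 0.943 to 0.980 in High and 0.836 to 0.877 in Low. With FPKM scaled to 1000000 the difference of Low against Control was -0.20 (adjusted p = 0.181) for Epas1 in place of 0.03, and 0.32 (adjusted p = 0.0259) for Pfkfb3 in place of 0.19. The direction of Epas1 thus depended on the column read. The positions given are those of the tables, and the submitters' notes name build mRatBN7.2, although the tables place genes up to position 282724300 of chromosome 1, beyond the end of that chromosome in the named build.

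The remaining genes of the pathway were read from 4 lists of 82 genes, of which 81 were found by name and 78 were tested. In Low against Control 2 of the 78 rose and 1 fell, a share of 3.85% against the 6.11% of all genes, with a median log2 difference of 0.08 against 0.06 over all genes. Gbe1, which encodes the glycogen branching enzyme, had 19.3 ± 1.88 (SD, n = 8) in Control and 24.1 ± 3.10 in Low, a difference of 0.30 (SE 0.0878, adjusted p = 0.0394). Mxi1, a repressor of Myc activity, rose from 38.9 ± 4.34 to 45.2 ± 3.15 (0.22, adjusted p = 0.0319). Kdm4b, a histone demethylase, fell from 23.2 ± 3.08 to 19.1 ± 1.96 (-0.27, adjusted p = 0.0414). None of the 3 was called without scaling, by the exact Wilcoxon tests, when only the groups compared were fitted, which left the differences as they were, or with libraries 56 to 62 as a covariate, where the differences were 0.30 for Gbe1, 0.17 for Mxi1 and -0.27 for Kdm4b. With median-of-ratios scaling Gbe1 (0.25, adjusted p = 0.107) and Mxi1 (0.16, adjusted p = 0.0534) were not called and Kdm4b was (-0.32, adjusted p = 1.6e-05), and Kdm4b was -0.67 with FPKM scaled to 1000000 and -0.13 with FPKM as deposited.

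In High against Control 0 of the 78 genes passed, as did 0.0% of all genes, and 2 had an unadjusted p under 0.05, where 2.11% of all genes did. The estimates furthest from 0 were those of Rora (-0.51), a nuclear receptor, Cp (-0.35), the copper carrier ceruloplasmin, and Pdk3 (-0.31), a kinase that restrains pyruvate dehydrogenase, all at an adjusted p of 0.999. For Rora the FPKM column gave -0.07.

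In Low against High 7 of the 78 rose and 1 fell, a share of 10.3% against the 11.7% of all genes. Tfrc, the transferrin receptor, had 46.4 ± 3.68 in High and 61.2 ± 6.70 in Low, with 7 of 8 Low rats above the highest High rat (0.39, SE 0.0844, adjusted p = 0.00315). Crebbp, a coactivator of the factor, rose by 0.33 (adjusted p = 0.0378), Gbe1 by 0.33 (adjusted p = 0.0153) and Pdk3 by 0.29 (adjusted p = 0.0448). Bnip3l, the close relative of Bnip3, had 93.0 ± 5.83 in High and 109 ± 10.3 in Low (0.22, adjusted p = 0.0114) beside 0.22 at an adjusted p of 0.112 for Bnip3. Mxi1 rose by 0.24 (adjusted p = 0.0114), the chaperone gene Hsp90ab1 rose by 0.18 (adjusted p = 0.0402) and turned to -0.04 without scaling, and Kdm4b fell by 0.24 (adjusted p = 0.0442). By list, 2 of 18 tested factor subunits and regulators, 2 of 20 genes of glucose uptake and metabolism, 1 of 15 genes of vessels, blood and secreted factors and 3 of 25 genes of stress, matrix and other roles passed. Without scaling none of these 8 genes passed. With median-of-ratios scaling Tfrc, Crebbp and Kdm4b passed and Bnip3l (0.13, adjusted p = 0.246), Hsp90ab1 (0.09, adjusted p = 0.337), Pdk3 (0.20), Mxi1 (0.14) and Gbe1 (0.24) did not. With libraries 56 to 62 as a covariate none passed, although the differences of Tfrc (0.35), Crebbp (0.36), Bnip3l (0.26), Gbe1 (0.33) and Kdm4b (-0.25) stayed close to their values without it, and those of Pdk3, Mxi1 and Hsp90ab1 were 0.20, 0.19 and 0.12.

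**Figure D3:**
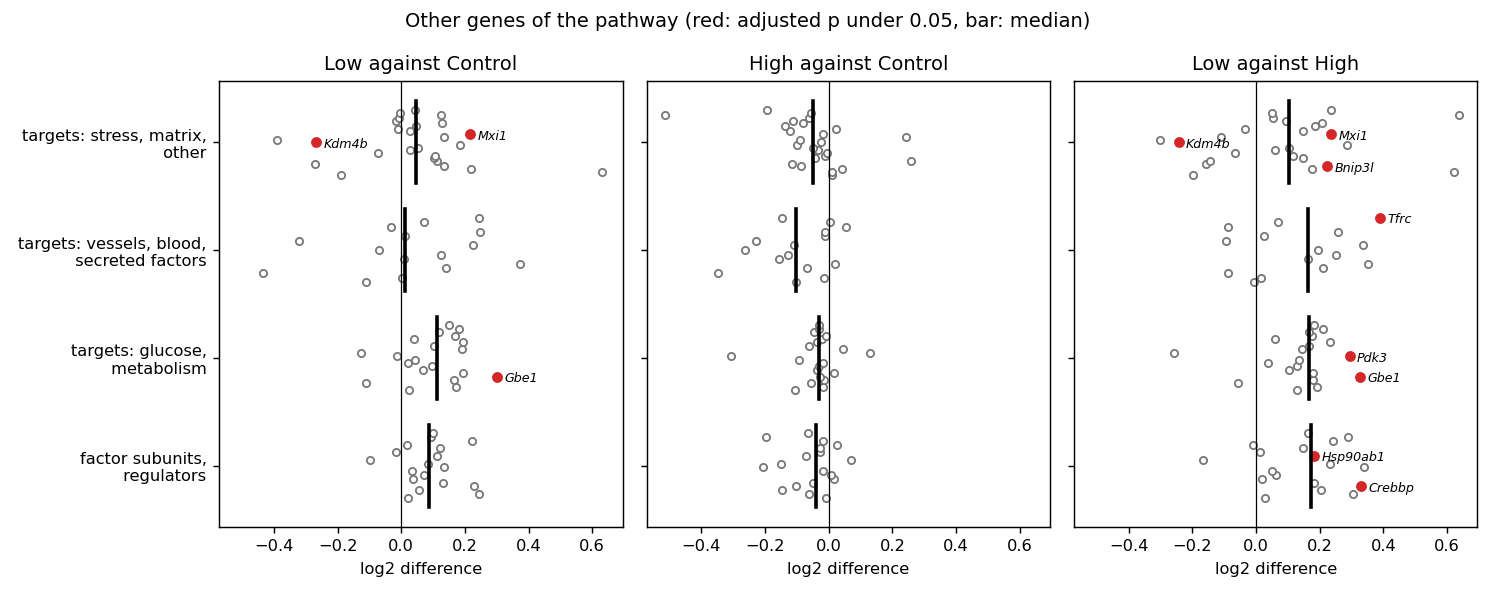
Log2 differences of the 78 tested genes of the 4 pathway lists in the 3 comparisons, 8 rats per group, 1 point per gene. Red points passed an adjusted p of 0.05, and the bars are list medians, which lie between 0.10 and 0.17 in Low against High, where Hsp90ab1 turns below 0 without scaling.

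Across the 24 rats, with group means removed, the members did not vary as 1 set. Of 45 pairs, 33 had a positive and 12 a negative Pearson r, with a median of 0.20, and 4 pairs passed an adjusted p of 0.05 over all pairs by permutation of rats within groups. By Spearman's rho 3 pairs passed.

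Bnip3 (ENSRNOG00000017243, chromosome 1, 211248098 to 211265282, minus strand) and Pgk1 (ENSRNOG00000058249, chromosome X, 77263359 to 77279367, plus strand) had r = 0.80 (permutation p = 1e-05, the smallest the permutations can give, adjusted 0.000225) and rho = 0.73 (adjusted permutation p = 0.0057). Without the 2 rats farthest from the median, r was 0.70, and within Control, Low and High it was 0.68, 0.88 and 0.86. Ldha and Pgk1 had r = 0.78 (adjusted permutation p = 0.000225) and rho = 0.72 (adjusted 0.0057), with 0.68 without 2 rats and 0.71, 0.89 and 0.67 within the groups. Egln3 and Ldha had r = 0.70 (adjusted permutation p = 0.0096) and rho = 0.73 (adjusted 0.0057), with 0.67 without 2 rats and 0.80, 0.70 and 0.52 within the groups.

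Bnip3 and Ldha thus followed Pgk1 without passing as a pair of their own (r = 0.38), and Egln3 was paired with Ldha more closely than with its fellow hydroxylase Egln1 (r = 0.25), a difference between correlations that was not tested. Hif1a and Egln1 (ENSRNOG00000019773, chromosome 19, 57662278 to 57699113, minus strand) passed by r (0.60, adjusted permutation p = 0.0383) and not by rho (0.59, adjusted 0.0529), and their r was -0.01 with median-of-ratios scaling and 0.35 in FPKM. The r of the other 3 pairs was 0.62 or more under each scaling and column tried. Epas1 was on the negative side of Bnip3 (r = -0.45) and Pgk1 (r = -0.37), at adjusted p-values over 0.05. Its correlation with Adm of 0.57 went to 0.33 without Control replicates 49 and 56, which also had the lowest and the highest endothelial marker sums. These correlations are read within scaled libraries, and without scaling all 45 pairs passed.

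**Figure D4:**
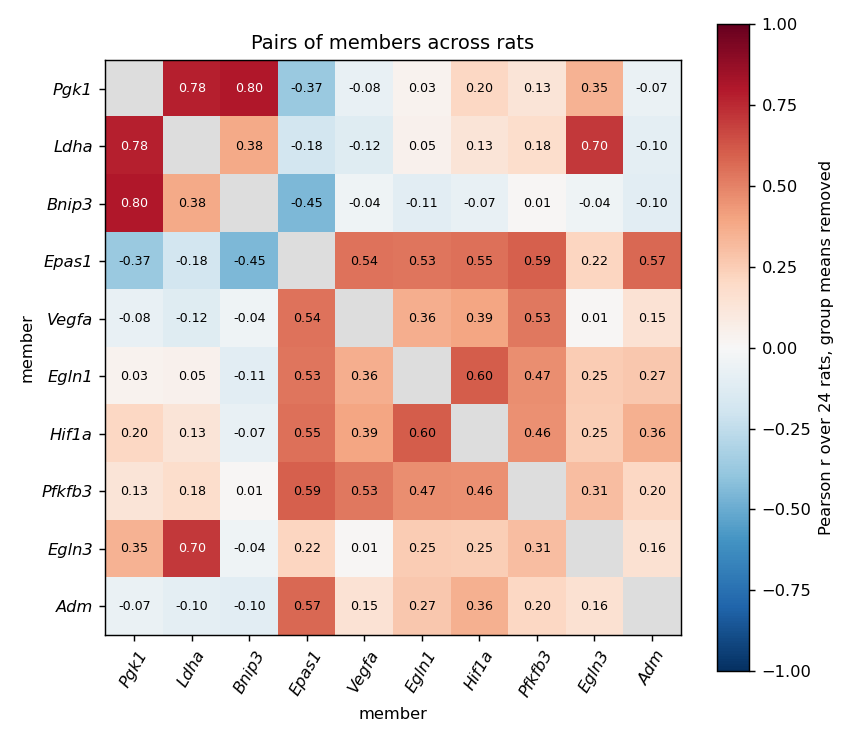
Pearson r of log2(scaled coverage + 1) between the 10 members over 24 rats after removal of group means, as colour and number in each cell. Pgk1 with Bnip3 (0.80) and Ldha (0.78) and Egln3 with Ldha (0.70) are the darkest cells, and Epas1 with Bnip3 (-0.45) is the lowest.

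**Figure D5:**
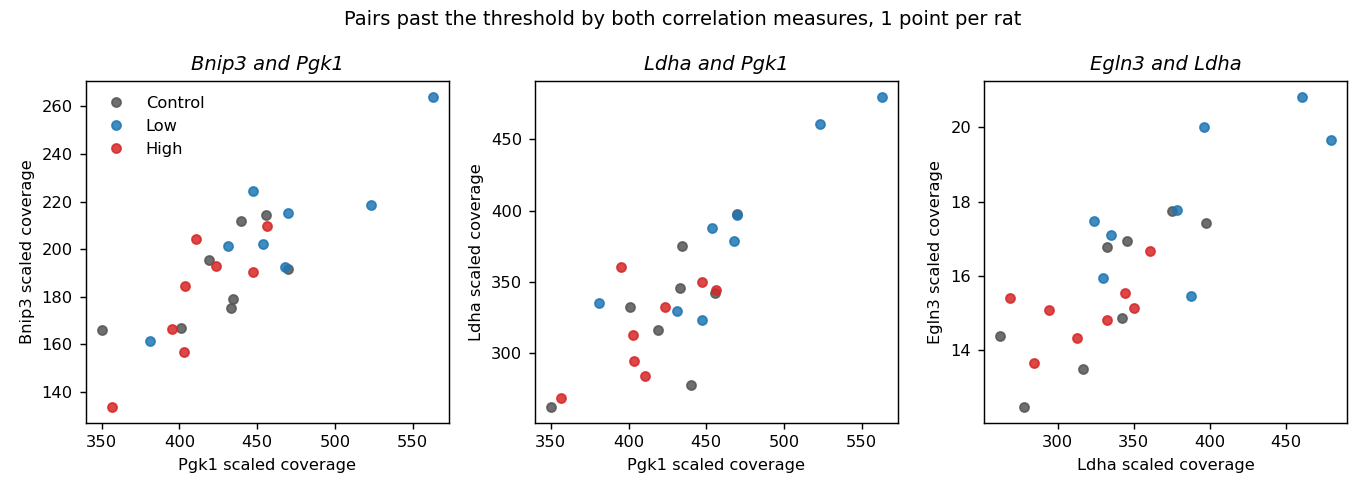
Scaled coverage of the 3 pairs that passed by both correlation measures, 1 point per rat, 8 rats per group, linear axes that do not start at 0. Low replicate 57 is at the upper right of the panels of Bnip3 and Pgk1 and of Ldha and Pgk1, and r without the 2 rats farthest from the median is 0.70 and 0.68.

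Among 13136 genes searched, those nearest to each member by r over the same 24 rats were not members. Pgk1 was nearest to Atp6ap2 (0.96), Bnip3 to Nptn (0.96), Pfkfb3 to Spred1 (0.95), Hif1a to Gprasp1 (0.95), Ldha to Smap1 (0.95) and Epas1 to Sh2b3 (0.93). Egln1 was nearest to Papola (0.89), Vegfa to Cyyr1 (0.83) and then to its receptor gene Flt1 (0.77), Adm to Itgb5 (0.80) and Egln3 to Pym1 (0.80). The best member stood at place 13 for Egln3, which was Ldha, and at place 75 for Ldha, which was Pgk1. For Bnip3 it was Pgk1 at place 188, for Pgk1 it was Bnip3 at place 224, and for Hif1a it was Egln1 at place 3703. The share of passing pairs among other genes was not measured. These values share library, depth and tissue composition and are given as a description.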

How the data were processed

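Frontal cortex RNA of 24 rats was sequenced by the authors from stranded mRNA libraries. The submitters' notes name FastQC, Trimmomatic, TopHat2 and StringTie, without versions. The authors deposited 1 StringTie gene table per rat with coverage (a signal of mean read depth per base), FPKM and TPM. In deposited Control and High tables the TPM column of assembled loci alone sums to 1000000, so the reference genes come on top. No column holds read counts, and the counting error is unknown.

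Coverage of reference genes was summed per gene ID and scaled to 1000000 per library. Genes with a mean of at least 1 entered limma 3.58.1 (trend, robust, R 4.3.3) on log2(value + 1), with 3 groups of 8 in 1 fit, two-sided, Benjamini-Hochberg adjusted over 15644 genes, threshold 0.05. A fold on this scale understates changes of low genes. Pairs of members used 100000 permutations of rats within groups. The fit and the permutations were tested on simulated data. Python 3.11.15, numpy 2.4.6, pandas 2.3.3 and scipy 1.17.1 were used.

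The members and lists were chosen with earlier results of these data known. Named genes are all members, the pathway genes past the threshold (up to 10 a comparison, or where fewer than 3 pass the 3 furthest from 0), and the 3 genes nearest to each member by r. Of the pathway genes, Gapdh was not found by name and Slc16a3, Epo and Ca9 were under the minimum mean. Alternatives were a pseudocount of 0.1, a minimum mean of 5 or none, other scalings, FPKM and TPM, exact Wilcoxon rank-sum tests, a fit of only the groups compared, a covariate for libraries 56 to 62 and each rat left out. FPKM scaled to 1000000 and leaving out Control replicate 49 with Low replicate 57 were added after seeing the data. The study's methods describe 24 subjects, while the labels name no animals, and p-values measure the spread between these samples.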

Additional observations from a re-analysis of the deposited data

Results flagged for a closer look

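Adm, the gene of the vessel-dilating peptide adrenomedullin, had a scaled coverage of 3.74 in Control replicate 56, where the other 7 Control rats lay between 1.24 and 2.36. It stood apart from its group by Dixon's test. In 30 sets of 8 values, 10 members in 3 groups, 1 was set apart in this way, and chance alone gives about 1.5. The same rat had the highest summed endothelial markers (114), the highest Epas1 level (121) and the highest astrocyte markers of the 24. It also had 159573 assembled loci, more than any other rat. The part of these in the Adm value was not tested. Without it, the log2 difference of Adm was not called in any comparison.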

How the results depend on the processing

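No paired analysis was possible because the groups share no replicate numbers. Another pseudocount, no filter and a minimum mean of 5 left each count of called members as it was, and Adm could not be tested at the minimum mean of 5 or in FPKM as deposited. Leaving out each rat gave 0 to 0 called members in Low against Control and in High against Control. In Low against High it gave 0 to 4 (4 without Low replicate 61). Called pathway genes were 0 to 5, 0 to 0 and 4 to 17 in Low against Control, High against Control and Low against High. Pairs were 3 to 7. Among all genes the calls ran from 676 to 1224 in Low against Control. In Low against High they ran from 1266 to 2676, with 2479 without Low replicate 61. Called members and pathway genes in Low against Control, then in Low against High, were 0, 0, 0 and 0 without scaling, 1, 10, 4 and 18 when scaled without mitochondrial genes (10.8% and 16.7% of all genes), 9, 65, 9 and 64 in FPKM as deposited (89.7% and 89.8% of all genes), where the median of all genes shifted by 0.53 and 0.52, and 4, 23, 5 and 26 in TPM (25.4% and 25.2% of all genes). Without scaling 4.44% of all genes were called in Low against Control and 7.99% in Low against High. Median-of-ratios gave 0 members and 4 pathway genes in Low against High, where 10.6% of all genes passed. Libraries 56 to 62 as a covariate gave 0 members there and 0 pathway genes in both, beside 2.31% and 2.26% of all genes. Fitting only the groups compared gave 0 pathway genes in Low against Control, beside 3.43% of all genes. The exact Wilcoxon tests gave 0 there, beside 372 of all genes. FPKM scaled to 1000000 gave 1 member, Pfkfb3, in Low against Control and in Low against High (0.32, adjusted p = 0.0182), in place of Egln3 in the latter. Of all genes 11.8% and 16.8% passed under that setting. Without Control replicate 49 and Low replicate 57 there were 1, 3 and 26 pathway genes in Low against Control, High against Control and Low against High. In the last there were 4 members. Among all genes 678 were called in Low against Control, and the counts for the other comparisons are given above. Depth in reads is unknown, and Adm lay nearest to the minimum mean. Pairs numbered 45 without scaling, 12 in TPM and 8 with the covariate.

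Signs turned, some near 0 and others at sizes up to 0.20, that of Epas1 with FPKM scaled to 1000000. In High against Control without scaling Hif1a was 0.14, Epas1 0.13, Egln1 0.18, Egln3 0.15, Vegfa 0.069, Bnip3 0.12, Pfkfb3 0.18, Ldha 0.13 and Pgk1 0.14, and in Low against High Epas1 was -0.13, Egln1 -0.18, Vegfa -0.039, Pfkfb3 -0.022 and Pgk1 -0.043. With median-of-ratios Egln1 was 0.034, Egln3 0.0045 and Pfkfb3 0.033 in High against Control, and Epas1 was -0.0085 and Egln1 -0.060 in Low against High. In Low against Control Epas1 was -0.0011 and Egln1 -0.0014 without scaling, and both -0.025 with median-of-ratios. Scaled without mitochondrial genes, Egln1 was 0.022 and Pfkfb3 0.020 in High against Control. In FPKM there, Hif1a was 0.0054, Epas1 0.016, Egln1 0.044, Egln3 0.013, Pfkfb3 0.037 and Pgk1 0.0042, and in TPM they were 0.0053, 0.016, 0.046, 0.015, 0.039 and 0.0043. Epas1 in TPM was -0.077 in Low against Control and -0.093 in Low against High. With the covariate, Epas1 was -0.061 and Adm -0.16 in Low against Control, and -0.026 and -0.042 in Low against High. With FPKM scaled to 1000000, Epas1 was -0.20 in Low against Control and -0.17 in Low against High, and Egln1 0.00063 in High against Control. Leaving out each rat, Epas1 ran from -0.033 to 0.090 and Egln1 from -0.023 to 0.081 in Low against Control, and Egln1 from -0.058 to 0.046, Pfkfb3 from -0.076 to 0.026 and Epas1 from -0.12 to 0.0031 in High against Control. The cause was not tested.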
